A study of Mus musculus with 2 samples.

Results

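The nuclear genes of oxidative phosphorylation were examined in the mRNA of mouse M-MDSCs, the monocytic kind of myeloid-derived suppressor cells, which restrain T cell responses. The genes were chosen by symbol from the deposited table: the Nduf genes of complex I (Ndufa, Ndufb, Ndufc, Ndufs and Ndufv followed by a number), Sdha to Sdhd of complex II, the Uqcr genes and Cyc1 of complex III, Cox4 to Cox8 of complex IV, and the Atp5 genes of complex V. After 4 pseudogene symbols were left out, 85 of 34745 genes remained, with 37 in complex I, 4 in complex II, 9 in complex III, 18 in complex IV and 17 in complex V. The symbols, and no threshold on the counts or FPKM, set the membership.

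Bone marrow cells of mice aged 6 to 8 weeks were cultured for 7 days with GM-CSF at 50 ng/ml, a myeloid growth factor used to induce MDSCs. CHBP- M-MDSC received GM-CSF and no peptide, and CHBP+ M-MDSC also received CHBP, a cyclic peptide derived from erythropoietin. The cells were then separated by flow cytometry as CD11b+Ly6G-Ly6C high cells. The strain is labelled C57BL/6 for CHBP- and C57BL/7 for CHBP+, and no gene deletion is given for either group. The methods name C57BL/6 mice and mice lacking the erythropoietin receptor in myeloid cells as bone marrow sources, and no strain for the sequenced RNA. The labels give no CHBP dose, and the methods and the dose series of the study use different units. RNA of each condition was sequenced as 1 library, of 16484504 counted reads for CHBP- and 16280466 for CHBP+, so no test between the conditions was possible, and an effect of CHBP cannot be told apart from any other difference between the 2 cultures or libraries.

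Oxidative phosphorylation is carried out in the inner mitochondrial membrane. Complexes I and II take electrons from NADH and succinate and pass them to ubiquinone, complex III passes them on to cytochrome c, and complex IV hands them to oxygen. Complexes I, III and IV pump protons as they do so, and complex V, the ATP synthase, lets the protons back to make ATP. Most subunits are encoded in the nucleus and imported, whereas a small set is encoded by the mitochondrial genome. Among this set are subunits that help to form the proton paths of complexes I, IV and V. All complexes but complex II hold subunits of both origins. In myeloid cells, the balance between glycolysis and respiration is known to shift with activation and differentiation.

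Of the 85 genes, 82 had at least 1 read, and 79 reached 1 FPKM (reads per length of gene, scaled to the library total) in at least one library. These 79 genes were kept for counts of genes. The log2 ratio of a gene was log2 of the FPKM plus 1 in CHBP+ divided by the FPKM plus 1 in CHBP-, in which the added 1 makes the difference of a low gene smaller. Of the 79 genes, 77 had a log2 ratio below 0, beside 53.7% of the 10948 genes kept in the whole table. At least 1.5-fold lower in CHBP+ were 17 of 79 genes, beside 2.89% of all genes kept, and at least 1.5-fold higher were 0 of 79, beside 3.42%. The median log2 ratio of the 79 genes was -0.42, with quartiles of -0.56 and -0.32 and a range from -0.95 for Uqcr11 to 0.10 for Ndufs1. The median over all genes kept was -0.03. Most genes of the pathway were therefore lower in the CHBP+ library by a modest amount, and few stood far from the rest.

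The reads of the 85 genes summed to 119134 in CHBP- and 93611 in CHBP+, which is 0.723% and 0.575% of the counted reads. In a bulk sample, fewer cells that carry an mRNA and less of that mRNA per cell cannot be told apart. For single genes, the log2 ratio of CPM (reads scaled to the library total alone) was given an exact Clopper-Pearson 95% interval from the share of a gene's reads that fell in each library. Reads are not independent molecules, so this interval covers counting error only and does not stand in for the missing replicates. The interval lay wholly below 0 for 72 of the 79 genes, beside 31.0% of all genes kept, and wholly above 0 for 1 gene, Ndufs1, beside 27.9%. A difference beyond counting error between these libraries was thus common in the whole table, in both directions.

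**Figure D1:**
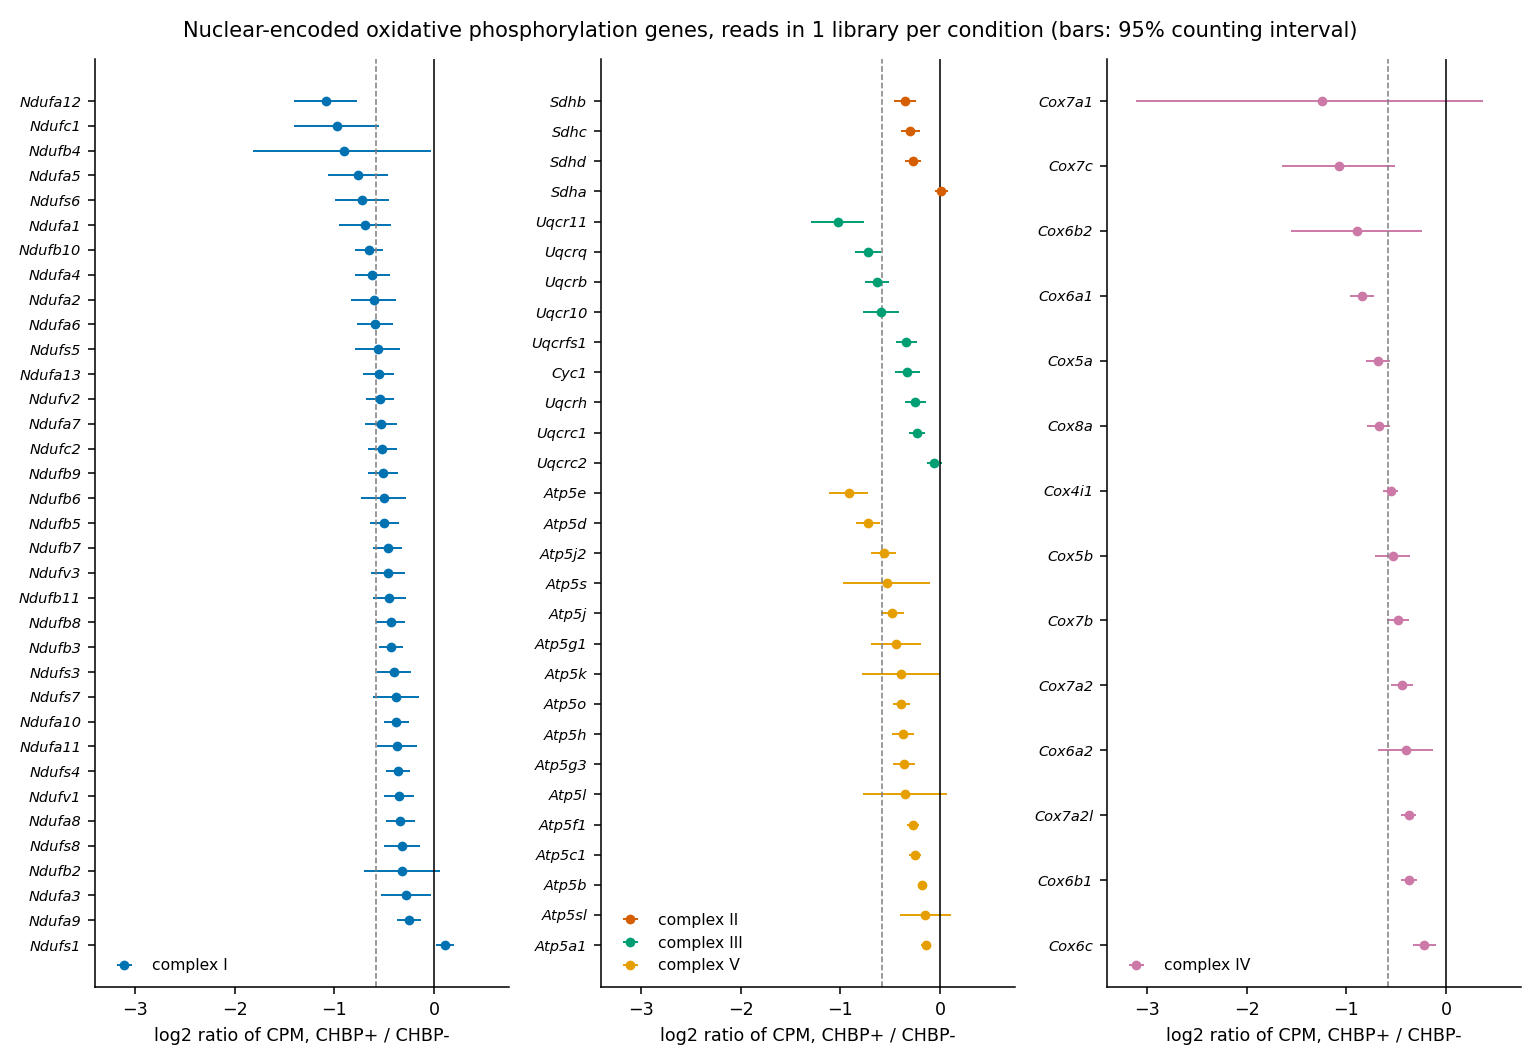
Log2 ratio of CPM between the CHBP+ and CHBP- libraries (x axis) for 78 of the 79 genes kept (y axis), grouped by complex. Points are single ratios of 1 library per condition, bars are exact 95% counting intervals, and the dashed line marks 1.5-fold lower. Ndufs1 has its interval above 0, and 71 of the genes drawn have theirs below 0.

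The promoters of these genes are shown first, since genes of the respiratory chain are known to share binding sequences for NRF1, GABP of the ETS family, YY1 and the oestrogen-related receptors (ERR). A promoter window of 250 bases before to 50 bases after the start was found in RefSeq (GRCm38.p6) for 69 of the 85 genes, in 75 windows. The letters searched, on both strands, were GCATGCGC for NRF1, CCGGAAGT for the ETS family, AAGATGGC for YY1 and CAAGGTCA for ERR. The windows printed here are those of Uqcr11, a gene at the low end of the log2 ratios and one of 2 with letters of 2 factors, Atp5l, the other one, Ndufc1 as an example of YY1, and Uqcrc1 as an example of NRF1 with a gene near the upper end of the log2 ratios. Capitals mark the matching letters, and positions count from the start as 1, with the base before it as -1.
Uqcr11, chr10:80406772-80407071, minus strand: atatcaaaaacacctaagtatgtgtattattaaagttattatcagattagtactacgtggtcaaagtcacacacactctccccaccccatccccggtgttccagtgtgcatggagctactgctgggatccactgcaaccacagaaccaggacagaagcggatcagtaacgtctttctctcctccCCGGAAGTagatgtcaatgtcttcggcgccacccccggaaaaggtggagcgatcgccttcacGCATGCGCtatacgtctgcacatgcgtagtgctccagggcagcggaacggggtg
Atp5l, chr9:44920693-44920992, minus strand: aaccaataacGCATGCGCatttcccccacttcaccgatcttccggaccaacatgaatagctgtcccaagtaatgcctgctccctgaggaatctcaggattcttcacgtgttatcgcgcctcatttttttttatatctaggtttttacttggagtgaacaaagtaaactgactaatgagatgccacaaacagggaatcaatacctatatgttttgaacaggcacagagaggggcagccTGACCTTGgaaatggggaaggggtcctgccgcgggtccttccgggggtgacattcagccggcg
Ndufc1, chr3:51408906-51409205, minus strand: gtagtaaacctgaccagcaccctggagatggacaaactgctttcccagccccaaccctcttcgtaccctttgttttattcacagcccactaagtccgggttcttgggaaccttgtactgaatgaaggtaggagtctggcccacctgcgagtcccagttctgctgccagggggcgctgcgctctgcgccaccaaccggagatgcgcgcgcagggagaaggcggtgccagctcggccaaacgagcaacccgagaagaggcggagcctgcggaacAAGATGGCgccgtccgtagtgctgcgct
Uqcrc1, chr9:108936398-108936697, plus strand: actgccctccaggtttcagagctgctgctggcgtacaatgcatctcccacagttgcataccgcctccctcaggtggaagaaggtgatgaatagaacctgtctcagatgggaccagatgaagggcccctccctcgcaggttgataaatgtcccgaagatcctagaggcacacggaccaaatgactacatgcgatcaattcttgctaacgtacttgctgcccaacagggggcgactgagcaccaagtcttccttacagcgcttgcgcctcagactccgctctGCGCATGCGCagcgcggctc

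In Uqcr11, the ETS letters begin at -66 and the NRF1 letters at -4. The Atp5l window holds NRF1 letters at -240 and ERR letters on the reverse strand at -13. In Ndufc1 the YY1 letters lie after the start, at 23, and in Uqcrc1 the capitals are a pair of overlapping NRF1 matches, on the reverse strand at 31 and on the forward strand at 33. Letters of at least 1 factor were found in 38.7% of the 75 windows, beside 18.7% of the 10673 windows of genes kept and 10.3% of all 32851 windows. By factor, NRF1 letters were in 13.3% of the windows of these genes and 5.42% of those of genes kept, YY1 letters in 16% and 4.81%, ERR letters in 5.33% and 0.984%, and ETS letters in 6.67% and 8.94%. The first 3 were more frequent in this set than in genes kept, and the ETS letters were not. Of the 69 genes, 26 had letters of 1 factor, 2 had letters of 2 and 41 had none. The median log2 ratio was -0.35 in the 27 kept genes with any of them and -0.44 in the 39 without. These medians are without regard to gene length, and whether the letters bear on the log2 ratio was not tested. These matches describe letters in the windows, and no binding was measured here.

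Complex I was the largest group, with 36 of 37 genes kept. Its median log2 ratio was -0.44, 7 genes were at least 1.5-fold lower, and its reads summed to 27736 in CHBP- and 20703 in CHBP+. The 7 genes of the catalytic core, which hold the flavin and the iron-sulphur clusters or bind ubiquinone, had a median of -0.32, and the 29 accessory genes kept, which build the scaffold around the core, had a median of -0.48. All 7 genes at least 1.5-fold lower were accessory. The longest transcripts had a median of 1540 bases in the core and 861 in the accessory genes. With the trend on transcript length removed, as described below, the medians were -0.07 and -0.21.

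In the core, Ndufs1, the largest iron-sulphur subunit (ENSMUSG00000025968, chromosome 1 from 63143596 to 63176833 on GRCm38, as are all gene spans given here), had 1889 reads in CHBP- and 2008 in CHBP+, or 10.3 and 11.1 FPKM. It was slightly higher in CHBP+, with a log2 ratio of 0.10 and a log2 ratio of CPM of 0.11 (95% interval 0.01 to 0.20). Its span overlaps that of Eef1b2, a translation elongation factor gene with 6681 and 4813 reads, so reads of the 2 genes may have been shared in the counting. Ndufs3 (657 and 491 reads), Ndufs7 (369 and 280) and Ndufs8 (563 and 444), subunits of the arm that leads electrons to ubiquinone, had log2 ratios of -0.37, -0.33 and -0.31. At the NADH end, Ndufv1, which binds NADH and the flavin, had 824 and 638 reads (-0.31), and Ndufv2, an iron-sulphur partner, had 1059 and 719 reads (-0.52). Of the core genes, 6 of 7 were lower in CHBP+ with an interval below 0, and none passed 1.5-fold.

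Among the accessory genes, Ndufa12 (ENSMUSG00000020022, chromosome 10 from 94198955 to 94221443) had the lowest log2 ratio of complex I. It had 266 reads in CHBP- and 124 in CHBP+, or 8.0 and 3.78 FPKM, which gave a log2 ratio of -0.91 and a log2 ratio of CPM of -1.08 (95% interval -1.40 to -0.77). This was the accessory gene whose whole counting interval lay past 1.5-fold. Ndufc1, a small membrane subunit, followed with 143 and 72 reads and a log2 ratio of -0.73. Ndufa5, of the matrix arm, had 254 and 148 reads (-0.68), and Ndufs6, a zinc-binding subunit of the same arm, had 301 and 180 (-0.68). Ndufa1, a short membrane subunit encoded on the X chromosome, had 330 and 202 reads (-0.67), Ndufb10, at the far end of the membrane arm, had 1086 and 681 (-0.62), and Ndufa2 had 423 and 274 (-0.59). These genes ranged from low to middle levels, 4.31 FPKM for Ndufc1 to 47.8 FPKM for Ndufa1 in CHBP-. Ndufa2 lay just inside the 1.5-fold limit of 0.58 on the log2 scale, and Ndufa6 (-0.58), Ndufa4 (-0.57) and Uqcr10 of complex III (-0.57) lay just outside it.

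The other 22 accessory genes kept had log2 ratios between -0.58 and -0.16, the highest being that of Ndufb2, with 134 and 106 reads. Ndufb2 overlaps Braf, and its interval included 0. Ndufs4, an assembly-stabilising subunit whose loss is a known cause of Leigh syndrome, had 1211 and 930 reads and a log2 ratio of -0.35. Ndufa4, named for complex I but now known as a subunit of complex IV, had 678 and 436 reads. Counted with complex IV, it left the medians at -0.44 for complex I and -0.50 for complex IV. Its paralog Ndufa4l2, a hypoxia-induced gene, had 2 reads in CHBP- and 1 in CHBP+, and was not kept. Ndufab1, the acyl carrier protein of complex I, is not matched by the naming rule, and had 233 and 213 reads with a log2 ratio of -0.07.

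Complex II, succinate dehydrogenase, belongs to both the TCA cycle and the respiratory chain. All 4 genes were kept, with a median log2 ratio of -0.28, and none was at least 1.5-fold lower. Sdha, the flavin subunit that oxidises succinate (ENSMUSG00000021577, chromosome 13 from 74322254 to 74350280), had 4253 and 4237 reads, or 46.9 and 47.3 FPKM, a log2 ratio of 0.01. Sdha was one of the 2 genes not below 0, and its log2 ratio of CPM was 0.01 (95% interval -0.05 to 0.07). The iron-sulphur subunit Sdhb had 1549 and 1199 reads (-0.34). The membrane anchors Sdhc, with 2036 and 1632 reads, and Sdhd, with 2753 and 2249 reads, had log2 ratios of -0.29 and -0.27. Without regard to length, Sdha stood apart from its partners, whose intervals lay below 0. With the trend on transcript length removed, as described below, the log2 ratios were 0.036 for Sdha, -0.061 for Sdhb, -0.30 for Sdhc and -0.016 for Sdhd.

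Complex III had all 9 genes kept, a median log2 ratio of -0.33 and 3 genes at least 1.5-fold lower, all among the 5 small subunits. The large core proteins Uqcrc1 and Uqcrc2, which are related to processing peptidases, had 2759 and 2313 reads (-0.23) and 3019 and 2865 reads (-0.06). The interval of Uqcrc2 included 0. The redox subunits were lower by a like amount: Cyc1, cytochrome c1, had 1158 and 911 reads (-0.32), and Uqcrfs1, the Rieske iron-sulphur protein, had 1823 and 1424 (-0.33).

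The small subunits of complex III differed more. Uqcr11 (ENSMUSG00000020163, chromosome 10 from 80402997 to 80406830), the supernumerary subunit whose promoter is printed above, had 362 reads in CHBP- and 176 in CHBP+, or 19.8 and 9.75 FPKM. This gave a log2 ratio of -0.95 and a log2 ratio of CPM of -1.02 (95% interval -1.29 to -0.76). The log2 ratio was the lowest of the 79 genes on the scale with the added 1, while by CPM Cox7a1, Ndufa12 and Cox7c were lower. Uqcrq, which binds near cytochrome b, had 1324 and 793 reads (-0.69, with an interval of the log2 ratio of CPM from -0.85 to -0.59), and Uqcrb, a ubiquinone-binding protein, had 1422 and 906 (-0.62). Uqcr10 had 636 and 417 reads (-0.57), and Uqcrh, the hinge protein next to cytochrome c1, had 1632 and 1355 (-0.24). The median of the 5 small subunits was -0.62, that of the 2 redox subunits -0.33 and that of the 2 core proteins -0.14. With the trend on transcript length removed, these medians were -0.26, -0.071 and 0.039.

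Complex IV, cytochrome c oxidase, had the lowest median of the 5 complexes, -0.49 over 14 of 18 genes kept, and 5 genes at least 1.5-fold lower. Its longest transcripts had a median of 668.5 bases. With the trend on transcript length removed, as described below, the median was -0.156 for complex IV and -0.157 for complex I. Then 0 of the 14 genes were at least 1.5-fold lower. The catalytic subunits of complex IV are mitochondrially encoded, and the nuclear subunits surround them, several as a general form and a form known from other tissues. Cox4i1, the general form of the ATP-sensing subunit, had 3842 and 2580 reads, or 87.6 and 59.6 FPKM, a log2 ratio of -0.55. Cox5a, at the matrix side, had 1487 and 916 reads, or 130.7 and 81.5 FPKM (-0.67), and Cox5b, the zinc-binding subunit, had 698 and 475 reads (-0.50).

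Cox6a1 (ENSMUSG00000041697, chromosome 5 from 115345642 to 115348981), the general form of subunit 6a, had the lowest log2 ratio of complex IV on the scale with the added 1. It had 1504 reads in CHBP- and 828 in CHBP+, or 76.6 and 42.7 FPKM, with a log2 ratio of -0.83 and a log2 ratio of CPM of -0.84 (95% interval -0.97 to -0.72). Cox8a, the general form of subunit 8, had 1645 and 1016 reads, or 183 and 115 FPKM (-0.67). Cox7c had 85 and 40 reads (-0.71), and Cox7a1, the heart and muscle form of subunit 7a, 12 and 5 (-0.70). By the log2 ratio of CPM, which has no added value, Cox7a1 (-1.25), Cox7c (-1.07) and Cox6b2 (-0.89) were below Cox6a1. Cox7c and Cox7a1 were the only ones of the 17 lower genes with under 100 reads in CHBP-, and the interval of Cox7a1 included 0. At the other end, Cox6c had 1413 and 1199 reads (-0.21). Its span overlaps that of Vps13b, which had 1135 and 2230 reads and was higher in CHBP+.

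Of all 79 genes, Cox6b1, which faces the intermembrane space (ENSMUSG00000036751, chromosome 7 from 30616974 to 30626151), had the highest FPKM in both libraries, 344 and 266, from 2866 and 2186 reads (-0.37). The general form was the higher in each library for most isoform pairs, per length of gene. The FPKM of Cox4i1 was 168 times that of Cox4i2, the lung and hypoxia form, in CHBP- and 161 times in CHBP+, and Cox6b1 was 266 and 380 times Cox6b2, the testis form. Cox7a2 was 63.6 and 111 times Cox7a1. The rarer genes of these pairs had 60 reads or fewer in each library, so the 2 ratios of a pair are not precise. They also carry the gene length implied by the counts and FPKM. For Cox6b1 and Cox6b2 it was 505 and 2807 bases, beside longest transcripts of 505 and 551 bases. For Cox4i1 and Cox4i2 it was 2661 and 1163 bases, beside 679 and 733. For Cox7a2 and Cox7a1 it equalled the transcript. Cox6a2, the heart and muscle form, was the exception in level: it had 260 and 194 reads, and Cox6a1 was 3.30 times Cox6a2 in CHBP- and 2.44 times in CHBP+. Cox7a2l, a relative of subunit 7a known to join complexes III and IV into supercomplexes, had 3460 and 2635 reads (-0.37), and Cox7a2 was 0.695 and 0.662 times its FPKM. Among the genes not kept, Cox4i2 had 10 and 7 reads, and Cox7b2, Cox8b and Cox8c had 0 in both libraries, which allows a level of up to 3 reads, or 0.182 CPM in CHBP- and 0.184 CPM in CHBP+.

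**Figure D2:**
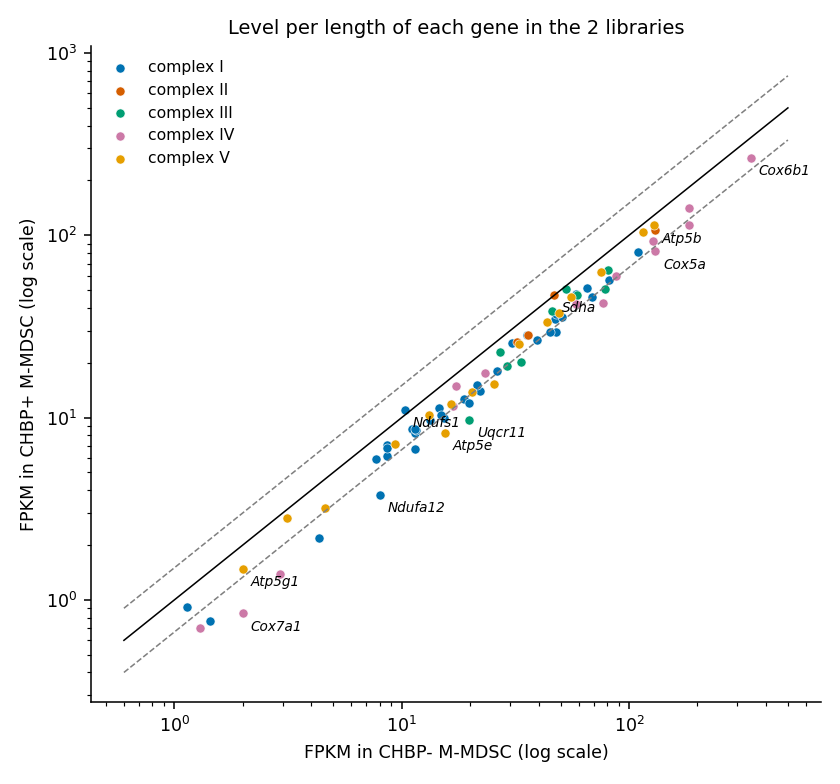
FPKM of each of the 79 genes kept in the CHBP- (x axis) and CHBP+ (y axis) library, on log scales, with colour for the complex. The solid line marks equal FPKM and the dashed lines 1.5-fold, without the added 1 of the log2 ratio. Of the 79 points, 77 lie below the solid line, Ndufs1 and Sdha lie above it, and Uqcr11 and Ndufa12 are among those below the lower dashed line.

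Complex V had 16 of 17 genes kept, a median log2 ratio of -0.35 and 2 genes at least 1.5-fold lower. It held more reads than any other complex, 46099 in CHBP- and 38003 in CHBP+. In the F1 head, the catalytic beta subunit Atp5b (ENSMUSG00000025393, chromosome 10 from 128083273 to 128090391) had 14679 and 12760 reads, or 129 and 113 FPKM (-0.18), and the alpha subunit Atp5a1 had 10025 and 8940 (-0.15). The gamma subunit Atp5c1, the rotating shaft, had 4427 and 3666 reads (-0.25). The small subunits at the foot of this shaft stood apart. Atp5e, the epsilon subunit (ENSMUSG00000016252, chromosome 2 from 174461072 to 174464105), had 646 reads in CHBP- and 338 in CHBP+, or 15.6 and 8.24 FPKM, a log2 ratio of -0.84 and a log2 ratio of CPM of -0.92 (95% interval -1.11 to -0.72). Atp5d, the delta subunit, had 1504 and 901 reads (-0.69, with an interval of the log2 ratio of CPM from -0.84 to -0.60). The subunits of 1 catalytic head thus had log2 ratios from -0.84 to -0.15.

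In the membrane, the c ring turns with the proton flow and is encoded by 3 genes for the same mature protein. Atp5g3 had 1583 and 1216 reads, or 32.8 and 25.5 FPKM (-0.35), and Atp5g1 had 325 and 236 reads (-0.28), so that the FPKM of Atp5g3 was 16.3 times that of Atp5g1 in CHBP- and 17.2 times in CHBP+. These FPKM rest on implied lengths of 2931 bases for Atp5g3 and 9797 for Atp5g1, beside longest transcripts of 723 and 4715 bases. Atp5g2 had 25 and 32 reads and stayed under 1 FPKM in both. The 4 genes of the peripheral stalk, Atp5f1, Atp5h, Atp5j and Atp5o, which keeps the head from turning, had log2 ratios from -0.45 to -0.27. The small membrane subunits Atp5j2, Atp5k and Atp5l had -0.53, -0.35 and -0.32. Atp5s, a coupling factor gene, had 113 and 77 reads (-0.42), and Atp5sl, a gene similar to it by name, had 276 and 246 (-0.11). The intervals of Atp5l and Atp5sl included 0.

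Seen together, the whole counting interval lay past 1.5-fold for 6 of the 17 lower genes: Ndufa12, Uqcr11, Uqcrq, Cox6a1, Atp5d and Atp5e. Over all genes kept, 1.21% were lower in this way. None of these 6 is a redox or catalytic subunit, but such genes are few among the 79. They are 7 in the core of complex I, 2 in complex II and 2 in complex III, and Atp5b in complex V. The highest log2 ratio of complexes I, II and III belonged to a core or catalytic gene (Ndufs1, Sdha and Uqcrc2), but other such genes lay lower, among them Ndufv2 (-0.52) and Sdhb, the lowest of complex II. The longest transcripts of Ndufs1, Sdha and Uqcrc2 had 2918, 2900 and 1850 bases, beside a median of 908 over the 79 genes.

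The log2 ratio also moved with gene length. Over all 10948 genes kept, Spearman's rho of the log2 ratio was 0.478 with the gene length implied by the counts and FPKM, and 0.687 over the 10211 genes with a GENCODE M1 protein-coding transcript, with the length of the longest one. Over the 79 genes the same values were 0.488 and 0.548. These describe genes within the same pair of libraries, and genes are not independent replicates. Their longest transcripts had a median of 908 bases, beside 2893 for genes kept. To set like beside like, genes were sorted by implied length into 10 bins of like gene number. In the shortest bin, up to 1391 bases, the 30 genes of the pathway had a median log2 ratio of -0.51 and the other genes -0.29, and in the third bin, from 2277 to 3085 bases, 15 genes had -0.43 beside -0.13. The median of the pathway was below that of the other genes in each of the 8 bins that held any of its genes. By transcript length it was below in 7 of 8 bins, with the exception of the sixth, where 3 genes had 0.01 and the other genes 0.00. The shortest bin by transcript held 50 of the 79 genes, with -0.48 beside -0.36, and 14 of these 50 were at least 1.5-fold lower, beside 12.7% of the other genes.

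With the trend of the log2 ratio on implied length removed, the median of the 79 genes was -0.28, 77 were below 0, beside 52.9% of all genes kept, and 5 were at least 1.5-fold lower, Ndufa12, Uqcr11, Cox6a1, Atp5d and Atp5e, beside 1.53% of all genes kept. With the trend on transcript length removed, an alternative chosen after the data were seen, the median was -0.14, 71 of 79 were below 0, beside 51.9%, and 2 were at least 1.5-fold lower, Ndufa12 and Uqcr11, beside 0.96% of 10211 genes. By complex, the medians were then -0.16 for complex I, -0.039 for complex II, -0.091 for complex III, -0.16 for complex IV and -0.066 for complex V. The count of genes past 1.5-fold and the size of the median therefore depended on how length was treated, and which other property of the libraries moves with length was not tested.

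**Figure D3:**
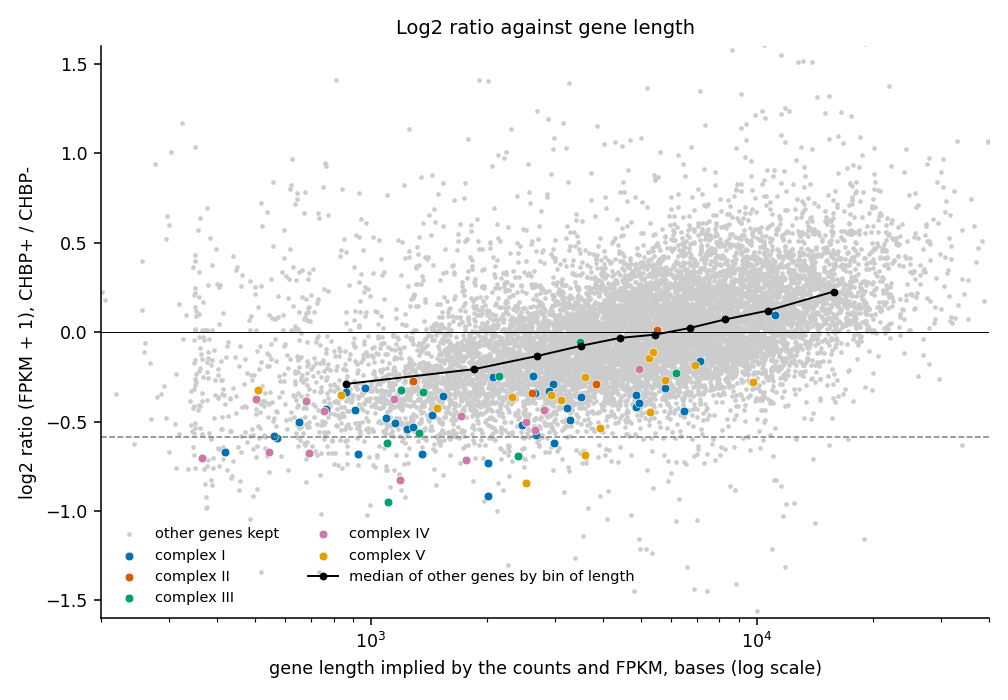
Log2 ratio (y axis) against the gene length implied by the counts and FPKM (x axis, bases, log scale) for genes kept, with the 79 nuclear-encoded oxidative phosphorylation genes in colour and a black line through the medians of the other genes by bin of length. Genes outside the plotted range are not drawn, and the dashed line marks 1.5-fold lower. Most coloured points lie below the line, in the shortest bin at a median of -0.51 beside -0.29.

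Genes of this pathway have many processed copies in the genome, and counting can lose or split reads between copies. For each gene, the longest transcript was read in windows of 75 bases, the read length the methods give, and windows with an exact copy elsewhere in mm9 were counted. Over 10% of windows had a copy in 18 of the 85 genes, or 21.2%, beside 9.24% of genes kept. The share reached 100% for Atp5g2, 85.8% for Atp5l, 50.6% for Cox5b, 43.9% for Cox7a2l, 43.6% for Ndufs5, 43.0% for Uqcrb and 41.3% for Atp5h. These genes can have lost reads, and Atp5g2, with 25 and 32 reads, was among the lowest. Cox7c had 25.0%, Uqcr11 22.9% and Ndufa12 22.2%, and no window of Atp5d, Atp5e or Uqcrq had a copy. The median log2 ratio was -0.45 in the 17 kept genes with over 10% and -0.39 in the 49 kept genes without any copied window, so lower values in CHBP+ were found in both. FPKM of genes with copied windows are uncertain as levels, in both libraries alike.

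**Figure D4:**
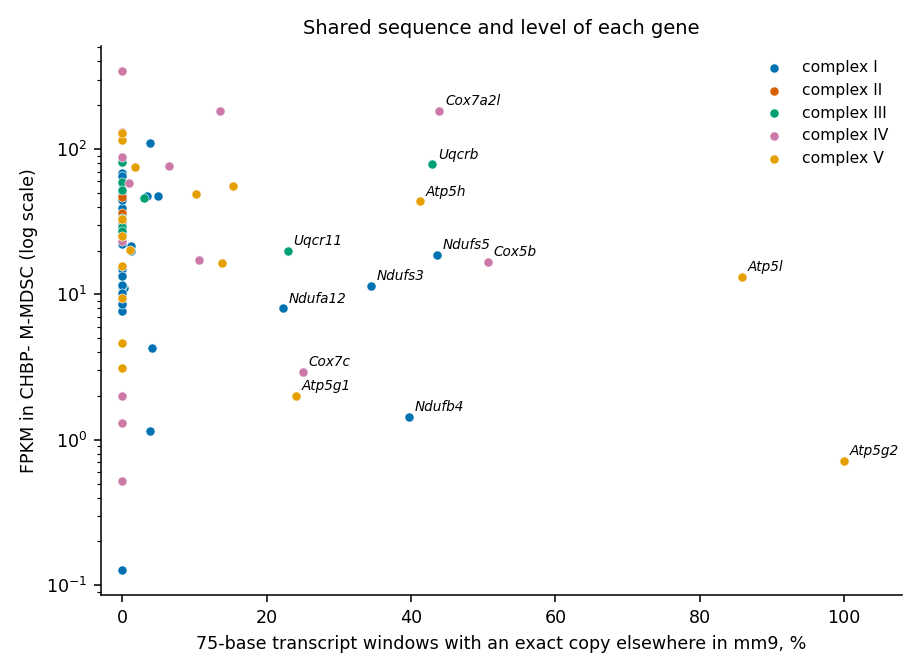
FPKM in CHBP- M-MDSC (y axis, log scale) against the share of 75-base transcript windows with an exact copy elsewhere in mm9 (x axis, percent), for the genes with reads. Genes at 20% or more are named, and Atp5g2 (100%) and Atp5l (85.8%) lie farthest to the right.

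The partners of these genes were read from lists. The 13 mitochondrially encoded subunits did not go with the nuclear ones. Their median log2 ratio was 0.02, 6 of 13 were below 0, none was at least 1.5-fold lower and 1 was at least 1.5-fold higher, mt-Nd4l, with 5996 and 9283 reads (0.65). At the low end, mt-Nd3 had 3425 and 2284 reads (-0.57), and mt-Co1, the catalytic subunit of complex IV, had 275596 and 276658 (0.02). An exact copy elsewhere in mm9 was found for 100% of the windows of mt-Nd4l, 98.9% of mt-Nd3 and 39.8% of mt-Co1, so these counts are uncertain. With the trend on implied length removed, the median of the 13 genes was 0.22, beside -0.28 for the nuclear genes. The reads of the 13 mitochondrial genes summed to 686567 in CHBP- and 677477 in CHBP+, or 5.76 and 7.24 reads per read of the 85 nuclear genes. Read counts of mitochondrial transcripts also depend on how their overlapping and antisense transcripts were counted, which the sources used here do not give.

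The assembly factors, which insert cofactors and join subunits, were lower in 39 of 46 genes kept, with a median of -0.19 and 3 at least 1.5-fold lower: Cmc1 (300 and 163 reads, -0.79) and Cox14 (396 and 238, -0.69) for complex IV, and Uqcc2 (302 and 189, -0.60) for complex III. The electron carriers and ubiquinone synthesis genes had 10 of 14 below 0 and a median of -0.14. Cycs, cytochrome c itself, had 82 and 81 reads, with copies of 36.2% of its windows. Pyruvate dehydrogenase and the TCA cycle had 12 of 18 below 0 and a median of -0.13, from Mdh2, malate dehydrogenase (5194 and 3899 reads, -0.39), to Ogdh, of the oxoglutarate dehydrogenase complex (3543 and 3909, 0.15). The ADP/ATP and phosphate carriers with the ATPase inhibitor Atpif1 (1591 and 1170, -0.42) had 4 of 4 below 0 and a median of -0.26. Ucp2, an uncoupling protein relative of immune cells, had 10903 and 9511 reads (-0.18), Ucp3 had 5 and 3, and Ucp1 had 0 in both.

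Regulators of these genes did not move one way. Of 13 kept, 9 had a log2 ratio below 0, with a median of -0.07 and none past 1.5-fold on that scale, while the reads of the list summed to 8392 in CHBP- and 9224 in CHBP+, and the counting interval lay wholly above 0 for 4 and wholly below 0 for 2. Tfam, which packages mitochondrial DNA and acts in its transcription, had 677 and 551 reads (-0.24). Nrf1, Yy1 and Esrra, whose letters were searched in the promoters, had -0.06, -0.05 and -0.19. Gabpa, the ETS factor, had 1459 and 1724 reads (0.24), and it overlaps Atp5j. Gabpb2, a partner of GABP, had 1255 and 1956 reads (0.51, with a log2 ratio of CPM of 0.66, 95% interval 0.56 to 0.76), and Tfb2m, a mitochondrial transcription factor, had a log2 ratio of 0.23. Of the coactivators, Ppargc1a had 2 reads and 0 reads, and Ppargc1b 27 and 46. Pprc1, another of them, had 375 and 646 reads, or 2.02 and 3.52 FPKM, and its log2 ratio of 0.58 was held down by the added 1. The log2 ratio of CPM of Pprc1 was 0.80 (95% interval 0.62 to 0.99), past 1.5-fold. With the trend on implied length removed, the log2 ratios were 0.19 for Gabpa, 0.13 for Gabpb2, 0.28 for Tfb2m and 0.43 for Pprc1. With the trend on transcript length removed, they were 0.061, 0.099, 0.31 and 0.38 in the same order.

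Lists outside the pathway were also low. The mitochondrial ribosome had 75 of 77 genes below 0, 6 at least 1.5-fold lower and a median of -0.31. The cytosolic ribosome, with kinase and binding-protein genes of like symbol left out, had 81 of 81 below 0, 20 at least 1.5-fold lower and a median of -0.48, and the proteasome had 36 of 38 below 0, none at least 1.5-fold lower and a median of -0.30. With the trend on implied length removed, the medians were -0.19, -0.34 and -0.20, beside -0.28 for the oxidative phosphorylation genes. Lower values were thus not particular to the respiratory complexes.

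**Figure D5:**
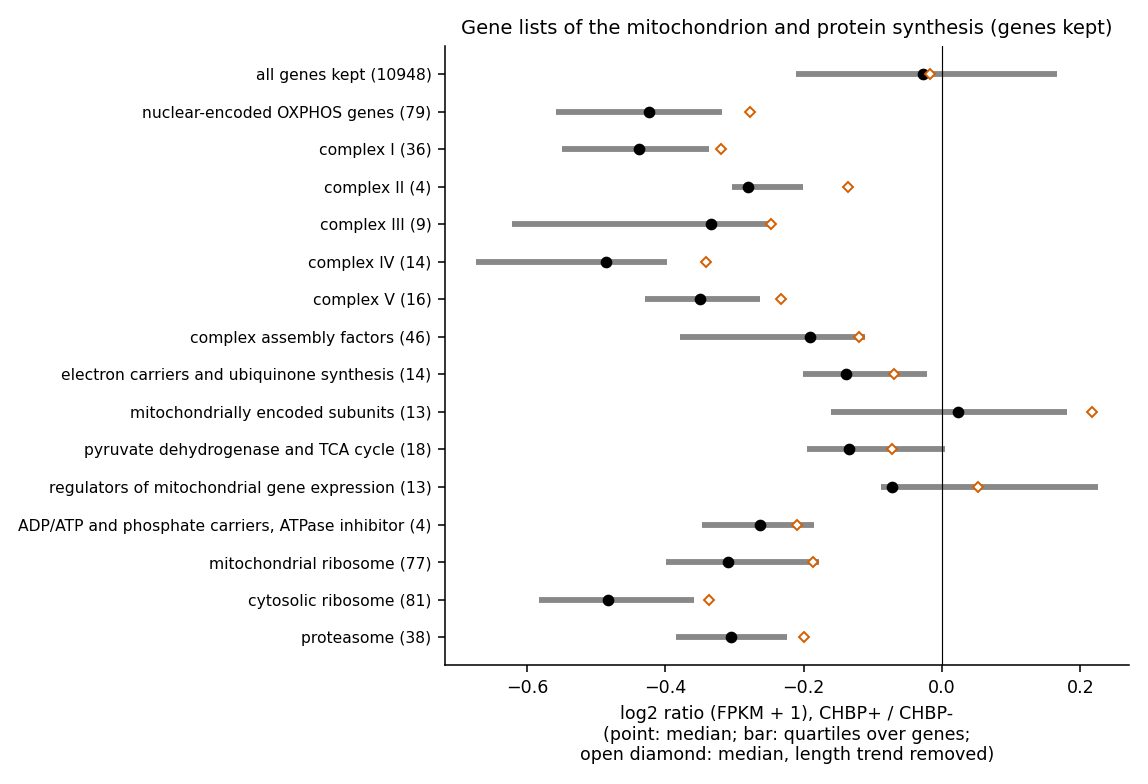
Median (point) and quartiles over genes (bar) of the log2 ratio for all genes kept, the nuclear-encoded oxidative phosphorylation (OXPHOS) genes, each complex, and the lists of other mitochondrial genes, ribosomes and proteasome, with the number of genes kept in brackets. Open diamonds give the median with the trend on implied length removed. Of the groups drawn, complex IV (-0.49) and the cytosolic ribosome (-0.48) have the lowest medians, and the mitochondrially encoded subunits lie at 0.02.

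The labelled cell type was checked against markers. Of the M-MDSC markers, Itgam (CD11b), Csf1r and Arg1 were abundant in both libraries, at 18653 and 27265, 10908 and 12000, and 9723 and 9644 reads, while Ly6g, absent from these cells by the sort, had 46 and 44. Ly6c2, used in the sort, had 4091 and 2411 reads (-0.73), and Nos2 had 14 and 26. Of the 9 entries of this list kept, 4 had a log2 ratio below 0 and 5 above, from -0.73 to 0.61 with a median of 0.01. At least 1.5-fold lower was 1 and at least 1.5-fold higher was 1. The reads of the list summed to 58449 in CHBP- and 70139 in CHBP+. Markers of other cells were present. All 6 erythroid genes were lower in CHBP+, with 30710 and 12809 reads in sum, and Hbb-bs, a beta globin, had 20238 and 5989 reads. Their median log2 ratio was -0.61. The 6 neutrophil markers summed to 4230 and 3212 reads with 5 of 6 lower, the 5 B cell markers to 1987 and 1560 with 4 of 5 lower, and the 5 mast cell markers to 5095 and 4595 with 3 of 4 kept lower. Of all genes kept, 53.7% were below 0. With the trend on implied length removed, the medians were -0.39 for the erythroid, 0.02 for the neutrophil, -0.33 for the B cell and 0.02 for the mast cell markers. Of the 6 T cell markers 1 was kept, with 165 and 140 reads in sum, and of the 6 dendritic cell markers 2 were kept, with 943 and 806 reads and Xcr1 at 0. The part of these cells in the lower values of the oxidative phosphorylation genes was not tested.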

How the data were processed

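Per the labels and the study's methods, RNA of sorted M-MDSCs was sequenced as single-end 75-base reads, 1 library per condition. The authors removed adapters, low-quality ends, short reads and ribosomal RNA reads. The deposited counts are raw reads per gene and the deposited FPKM are those counts per length of gene, scaled to the total of counts. The methods name TopHat2, HT-seq and mm9, whereas the submitters' processing notes name HISAT2 2.0.4, Cufflinks 2.1.1, Cuffdiff, mm10 and GRCm38. Coordinates are given as deposited, and for 67 of 69 genes the RefSeq promoter window on GRCm38.p6 touched the deposited span, so they are read as GRCm38. Handling of strand and multi-mapping reads is not given in the sources used here. 

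Log2 ratios used FPKM with a pseudocount of 1 and a minimum of 1 FPKM in at least one library. No count model was fitted, since 1 library per condition leaves no replicate spread. The 1.5-fold limit follows the methods. Length trends were polynomials of degree 3 in log2 length. Copies were exact 75-base matches in mm9 outside the gene. Named genes were all at least 1.5-fold different, the lowest and highest per complex, core subunits, isoform pairs and genes under 1 FPKM, and others were chosen after their values were seen. The values of 1 gene of the rule are not reported here by name, and it stays in the counts and medians. The members and lists were chosen with earlier results of these data known. Calculations were checked on simulated data. Python 3.11.15, numpy 2.4.6, pandas 2.3.3, scipy 1.17.1, matplotlib 3.10.9 and, for trimmed mean of M values factors, edgeR 4.0.16 in R 4.3.3 were used.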

Additional observations from a re-analysis of the deposited data

How the results depend on the processing

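No paired analysis was possible because each condition has 1 library, which also leaves no replicate to take out. The count of genes at least 1.5-fold lower was 17 as reported, beside 2.89% of all genes kept. It was 5 with the trend on implied length removed, beside 1.53%, and 2 with the trend on transcript length removed, beside 0.96%. With a fold of 2 it was 0, beside 0.42%. It was 22 with a pseudocount of 0.1, beside 5.22%, and 17 with CPM, beside 3.61%. With genes with copied windows left out it was 12 of 62, beside 2.85%. It stayed between 12 and 22 also with trimmed mean of M values, centring on the median, a minimum of 5 FPKM, no minimum, or overlapping genes left out. In these the share of all genes ran from 1.84% with no minimum to 3.11% with a minimum of 5 FPKM. The count of genes at least 1.5-fold higher was 0 under every one of these settings, beside 0.78% of all genes with a fold of 2 to 6.07% with a pseudocount of 0.1. With the trend on transcript length removed, the median log2 ratio was -0.14 over all the genes, -0.16 for complex I, -0.039 for complex II, -0.091 for complex III, -0.16 for complex IV and -0.066 for complex V. With the trend on implied length removed, that of complex II was -0.14. The cause was not tested. The shift of each named gene was set beside the distance from its log2 ratio of CPM to the bounds of its counting interval. The shift was larger than this distance for 23 of 48 genes with the trend on implied length removed. It was larger for 38 with that on transcript length removed. It was larger for 0 of 48 with a pseudocount of 0.1, centring, trimmed mean of M values or CPM. Leaving genes out does not alter the ratios of the rest. Over all 79 genes, signs changed with the trend on implied length removed for Ndufs1 (-0.05) and Uqcrc2 (0.03), and with that on transcript length removed for Uqcrc2 (0.11), Cox6c (0.14), Uqcrh (0.11), Ndufa3 (0.11), Atp5l (0.035) and Ndufa9 (0.0066). The settings on transcript length and on copied windows were chosen after seeing the data. Depth limits the genes under 100 reads, such as Cox7a1, whose interval of the log2 ratio of CPM ran from -3.10 to 0.36.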
